A study of Homo sapiens with 24 samples.

Results

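The circular RNAs (circRNAs) whose back-splice ends lie less than 5000 bases apart on the genome were described in HCC827 cells, a human non-small cell lung cancer line that carries an activating EGFR deletion. They were taken from the deposited circRNA table as the rows whose end minus start plus 1 is below 5000, and they were 1123 of 2997 circRNAs; 1428 spanned 5 to 30 kb and 446 spanned over 30 kb. The libraries came from HCC827 cells labelled WT that received DMSO, the vehicle, for 10 days (3 libraries) or Osi, osimertinib, an EGFR kinase inhibitor, for 10 days (3 libraries). The series holds 24 samples in 8 groups, and the other 18 are Parental, DTP and Resistant cells with EV or cATF6 overexpression, of which only Parental EV and DTP EV (3 libraries each) are used here, for the messenger RNA level of host genes. The labels do not state whether the 3 libraries of a group are independent cultures; p-values therefore reflect the spread between libraries, which may be technical.

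A circRNA forms when the splicing machinery joins the end of an exon to the start of the same exon or of an exon upstream of it, a back-splice. The resulting loop has no free ends, resists exonucleases and tends to outlive the linear transcript of its host gene. Only reads that cross the back-splice tell the circle from the linear RNA, so circRNA counts are low compared with gene counts. The span is the genomic distance between the joined ends, introns included; the spliced length is what remains of the loop when the introns are removed.

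The sequences below are back-splice junctions of members described in the results. They cover some of the abundant members that could be placed on exons, MAP3K1, and some of the members with reads in one treatment only. Each runs 5′ to 3′ in the direction of the transcript, with the last 15 bases of the last exon of the circle in lower case and the first 15 bases of its first exon in capitals, so that the change of case is the back-splice. They were read from GENCODE release 29 transcripts, by matching the span to a block of whole exons of the host.
ARHGAP12: actgaacagataaggGTTTAAATGTGATAC
ARHGAP5: aaagaagataaaaagGAAGATGATCCCTAT
CRKL: gccttggcattagagGTATCCAAGCCCACC
GLIS3: cccaacaagtgtacgGTCCCTTATTTCGCG
FAM13B: gaagaaaatacccagCACCCATATATCTCC
FBXW7: acaaaaacaacaaaaGATTACTTCCTTAGG
CORO1C: atgtgagattgccagAAAAATATGCAGGAA
MAP3K1: tagttcagaaaacagTTTCAGAGTGGCAGA
HIPK3: atctcggtactacagGTATGGCCTCACAAG
BABAM1: gagatgagttggaagCCAGCAGAAAACTGA
DOPEY2: tttaaaaccaccaaaCACAACCTCCAAGAG
GLG1: gaattgtgtaaaaagAGGTTCTGTCCGGAA
SAFB2: gatcaaaattgaaaaGTTGTCGGGGCCAAA
PRKCA: aggcagaaattcgagTACGAGATGCAAAAA

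The deposited values are log10 values, and undoing the log10 and subtracting 1 gave back-splice reads. Summed over all circRNAs, a library held 4944 to 5996 reads under DMSO and 7130 to 7333 under Osi. The reads were whole numbers in all 6 libraries for 844 members (75.2%), against 64.4% of the circRNAs of 5 to 30 kb and 52.2% of those over 30 kb. Among the other members, 156 moved in steps of 0.5 and 70 in steps of 1 over 3. What these fractions stand for, such as a mean over several items, is not stated and was not tested. The deposited spliced length was longer than the span in 759 members (67.6%), which a single circle cannot have, against 18.6% and 8.30% of the 2 longer classes; that column was therefore not used, and members are named here by host gene and hg19 position. In 20 members a library was listed at 0 although the other 5 averaged at least 8 reads; whether such a 0 is a gap in the table or an absent circle was not tested. Markers of the line were read from gene counts: in the Parental EV libraries EPCAM, an epithelial adhesion molecule, stood at 362 to 375 CPM (counts scaled to a common library total), and the leukocyte genes PTPRC and CD3E were at 0. Of the fibroblast and endothelial genes, COL1A1 stood at 14.7 to 16.03 CPM and PECAM1 at 3.76 to 4.13 CPM, and COL1A2, PDGFRB and VWF at 0.261 CPM or less.

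Short-span circRNAs came from many genes, and mostly 1 per gene. The 1123 members lay in 1049 host genes, with 11 rows that name no host; 986 hosts gave 1 member and 63 gave 2, and no host gave more. In the hosts with 2 members, the larger of them held a median of 71.4% of the reads of the pair, and it held at least 90% in 10 of 63 hosts. XPO1, the nuclear export receptor for proteins, was such a host: its circle at chr2:61749746-61753656 averaged 23.6 reads per library, while the other, at chr2:61708320-61711240, had 2 reads in Osi library 3 and 0 elsewhere. The median span was 1698 bases, from 139 to 4990. The shortest were hosted by RBM14-RBM4 (139 bases, 2 reads in a single library), CD55 (152 bases, 4 reads in a single library) and CD2AP (161 bases). Just inside the limit lay CELSR1 (4957 bases), VPS35 (4988 bases) and GFM2 (4990 bases), and just outside it SAE1 (5012 bases), MAP4K3 (5013 bases) and TMCC1 (5024 bases). The 3 inside averaged 2, 3 and 3.83 reads per library and the 3 outside 0.417, 0.5 and 4.83.

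Most members that could be placed matched a block of 1 to 3 exons. Back-splice reads show only the 2 joined ends. Exon number, spliced length and codons are therefore inferred here and below from annotated exons between those ends. Skipped exons or retained introns were not tested, and 344 of 1123 members were not matched to exactly 1 block. Of the 1072 members whose host is in the annotation, 779 (72.7%) had a span equal to exactly 1 block of whole exons of that host. Of these, 140 (18.0%) were a single exon closed on itself, 326 (41.8%) held 2 exons, 193 (24.8%) held 3 and 120 (15.4%) held 4 or more, up to 13. The single-exon form, whose span is its spliced length, made up 50.5% of the matched members under 500 bases, 35.7% of those of 500 to 1000 bases, 17.4% of those of 1000 to 2000 bases and 0% of those of 4000 to 5000 bases. The median exon number was 2, against 4 in circRNAs of 5 to 30 kb and 6 above 30 kb. Spliced lengths differed less than spans did, with a median of 400 bases (quartiles 305 and 573.5) against 571 and 740 bases. Within the members, the median spliced length stayed between 300 and 466 bases across the 6 span ranges from below 500 to 4000 to 5000 bases, while the median exon number went from 1 to 3.

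**Figure D1:**
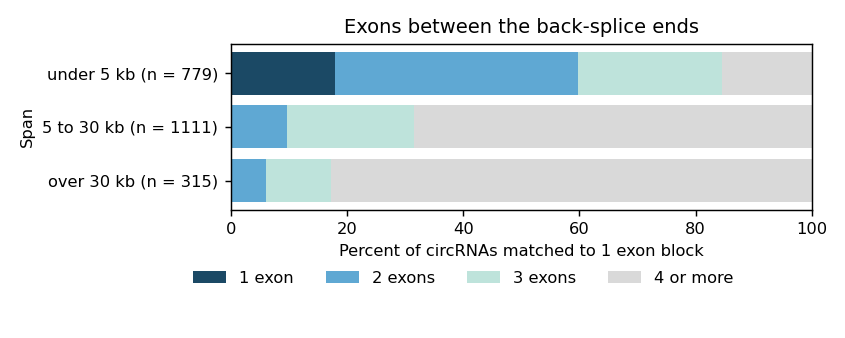
Percent of circRNAs that hold 1, 2, 3 or at least 4 exons between their back-splice ends (x axis), for each span class (y axis, with the number matched to exactly 1 exon block). In members under 5 kb 18.0% hold 1 exon and 15.4% hold at least 4; above 30 kb 82.9% hold at least 4.

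The exon at which a circle opens sets whether it can carry the start codon of its host. Exon 2 was the first exon in 218 of the 779 matched members (27.98%), against 38.1% of the circRNAs of 5 to 30 kb and 43.8% of those over 30 kb. Exon 1 opened 2 members and the last exon closed 4. By annotation such exons lack one of the 2 splice sites that a back-splice needs. Blocks were matched by span, and whether these few matches are right was not tested. Among the 763 members placed on a coding transcript, 121 (15.9%) held the annotated start codon, close to the 17.6% and 17.4% of the longer classes, and 11 (1.44%) held the stop codon. The median GC content of the spliced members was 47.0%.

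Reads were concentrated in few members. A member counts as detected in a library with at least 1 read, and 85 of 1123 (7.57%) were detected in all 6 libraries; these 85 held 34.7% of all member reads. By contrast 526 (46.8%) were detected in 1 library only and held 14.4% of the reads. The 12 most abundant members held 15.4% of the reads and the 100 most abundant 46.1%. The median member averaged 1 read per library, against 1.17 in both longer classes. Abundance had almost no rank correlation with the host's messenger RNA level, which was read in other libraries. Across the 1075 members whose host has a CPM, the rank correlation with that CPM in the Parental EV libraries was 0.0549. With the span it was 0.0307 across all 1123 members. Both values are a description over members that share the same 6 libraries. With a median of 1 read, many members are ranked on few reads, and hosts with no listed circle are not covered. The hosts of members were somewhat more abundant than those of longer circRNAs, with a median of 75.7 CPM against 65.8 and 55.1.

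The Osi libraries held more reads of short-span circRNAs than the DMSO libraries, but not more in proportion. Summed over members, the DMSO libraries held 1843, 2369 and 2312 reads and the Osi libraries 2615, 2701 and 2676, so the groups did not overlap. The means were 2175 ± 288 and 2664 ± 44.1 reads (SD, n = 3), 22.5% more under Osi, with p = 0.1 in a two-sided exact permutation test. That is the smallest p that 3 against 3 libraries allow. In the same libraries the reads of circRNAs of 5 to 30 kb were 28.5% higher under Osi and those above 30 kb 51.3% higher. Without DMSO library 1 the difference went from 489 to 323 reads, and with reads scaled by TMM factors of all circRNAs it was 155 reads (p = 0.6, exact permutation test). The share of members among all back-splice reads was 37.3%, 39.5% and 39.4% under DMSO and 35.7%, 37.0% and 37.5% under Osi. The difference, Osi minus DMSO, was -1.997 percentage points, with overlapping groups (p = 0.2, exact permutation test), and -1.10 points without the single most abundant member (p = 0.3, exact permutation test). It depended on which rows were counted, at -3.40 points in circRNAs with whole reads only, -3.04 points at a limit of 3000 bases (p = 0.1 each, exact permutation test) and -0.124 points in rows matched to exactly 1 exon block (p = 1, exact permutation test). The reads of matched members were 32.6% higher under Osi. Those of the other members differed by -2.27%, with overlapping groups (p = 0.7, exact permutation test). They were 538, 713 and 635 under DMSO and 619, 612 and 612 under Osi. These other members include the most abundant one, hosted by PION, which averaged 94 reads under DMSO and 17.7 under Osi.

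More members were detected under Osi as well. The DMSO libraries held 343, 409 and 389 members with at least 1 read and the Osi libraries 470, 508 and 471 (p = 0.1, exact permutation test). That was 27.0% more, against 23.8% more for all circRNAs, at 1020, 1177 and 1109 under DMSO and 1319, 1430 and 1345 under Osi. The reads of all circRNAs were 29.5% higher under Osi, and detection was not separated from this depth. Reads per detected member did not follow, at 5.70 ± 0.295 under DMSO and 5.52 ± 0.186 under Osi (SD, n = 3; p = 0.4, exact permutation test). In circRNAs over 30 kb the same quantity was 4.58 ± 0.421 and 5.34 ± 0.138, with groups that did not overlap (p = 0.1, exact permutation test).

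**Figure D2:**
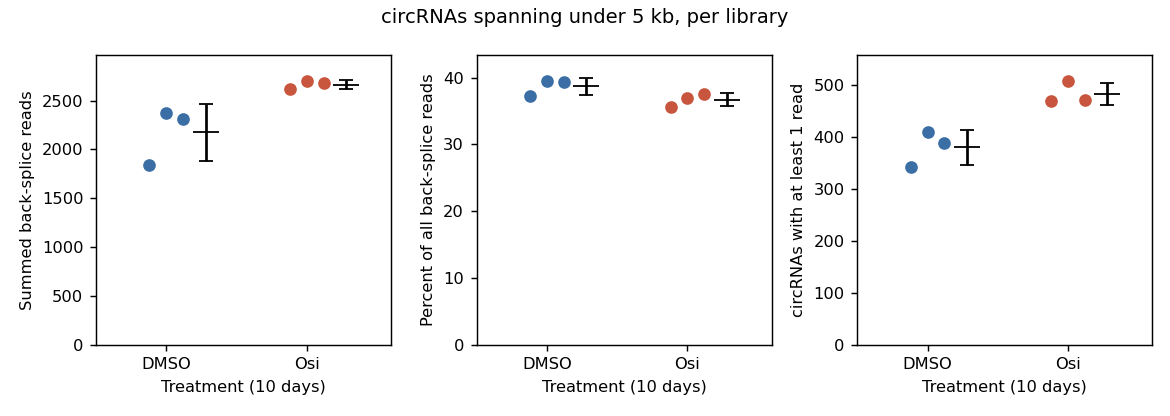
Left to right, the summed back-splice reads of members, their percent of all back-splice reads and the number of members with at least 1 read (y axes) in each DMSO and Osi library (points), with the mean and SD of 3 libraries beside them. Reads and detected members separate the groups, from 1843 to 2369 against 2615 to 2701 reads, while the percent of reads overlaps.

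Within the members, the difference between Osi and DMSO was larger in the longer span ranges. Reads of members under 500 bases were 16.4% higher under Osi, those of 500 to 1000 bases 14.7%, those of 1000 to 2000 bases 10.0%, those of 2000 to 3000 bases 29.7%, those of 3000 to 4000 bases 37.6% and those of 4000 to 5000 bases 62.9%. The groups overlapped in the first 3 of these ranges (exact permutation p = 0.2, 0.4 and 0.2) and did not overlap in the last 3, each with p = 0.1 in the exact permutation test. The range of 1000 to 2000 bases, with means of 618 reads under DMSO and 680 under Osi, holds PION. That member alone averaged 94 reads under DMSO and 17.7 under Osi, and the range without it was not tested. The range of 4000 to 5000 bases rested on 121 members with 100, 131 and 177 reads under DMSO and 225, 194 and 246 under Osi. The gradient itself was not tested, and it was not seen in the medians of single members: the median fitted change over tested members was 0.14, 0.18, 0.21, -0.08, 0.39 and 0.24 on the log2 scale in the same order of ranges.

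**Figure D3:**
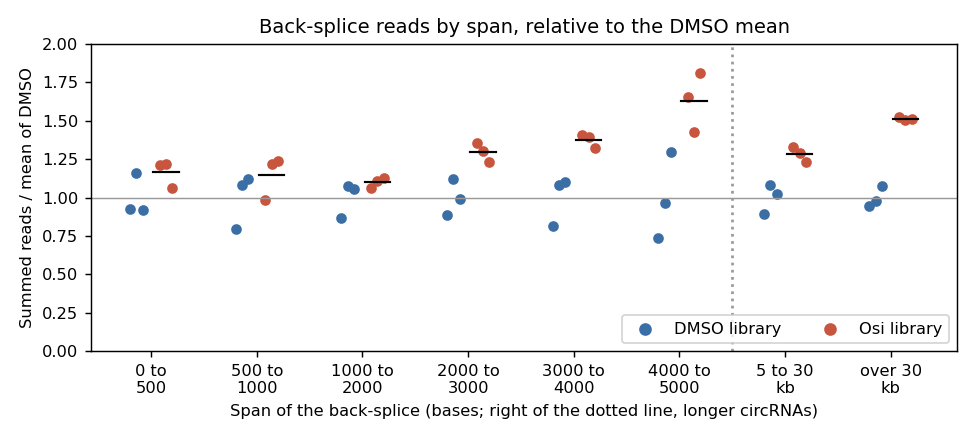
Summed back-splice reads of each library divided by the mean of the DMSO libraries (y axis), by span range (x axis), with points for libraries and a bar for the Osi mean. The Osi mean lies 10.0% above DMSO at 1000 to 2000 bases, the range that holds PION, and 62.9% above at 4000 to 5000 bases. The 2 ranges right of the dotted line are the longer circRNAs.

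Circles with the start codon made up a smaller part of the reads under Osi than under DMSO. The 121 start codon circles together held 335, 436 and 464 reads under DMSO and 466, 409 and 469 under Osi, 8.78% more (p = 0.5, exact permutation test). The 642 other matched circles of coding transcripts held 965, 1178 and 1203 reads under DMSO and 1527, 1654 and 1570 under Osi, 41.9% more (p = 0.1, exact permutation test). The start codon circles thus made up 25.7%, 27.0% and 27.8% of these reads under DMSO and 23.4%, 19.8% and 23.0% under Osi. That difference of -4.80 percentage points had p = 0.1 in the exact permutation test, the smallest possible, and the comparison was chosen after its values were seen. It was -3.46 points without ARHGAP12, the most abundant of them, also with p = 0.1 in the exact permutation test, and -2.97 points with overlapping groups in members with whole reads only (p = 0.2, exact permutation test). Sorted by first exon instead, the 218 members that open at exon 2 held 15.2% more reads under Osi (p = 0.3, exact permutation test). The 559 that open after it held 43.9% more (p = 0.1, exact permutation test). Start codon circles such as ARHGAP12 open at exon 2, so the 2 splits share members. Which of them the difference follows was not tested.

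The most abundant member, hosted by PION at chr7:76999751-77000833, was also the tested member with the smallest p. PION, now named GSAP, codes for an activator of gamma-secretase. This circle spans 1083 bases, has no matching exon block and had 87, 104 and 91 reads under DMSO and 9, 24 and 20 under Osi, so every Osi library lay below every DMSO library. The change was -2.64 ± 0.398 on the log2 scale (SE) and missed the threshold of 0.05 with a limma adjusted p of 0.0617. Adjusted p over the alternatives ran from 4.4e-10 to 0.256, and 4 of 16 passed, among them the fit on circRNAs with whole reads only (adjusted p 0.0449). The host messenger RNA was at 16.1 ± 0.597 CPM in Parental EV cells and 16.6 ± 2.21 in DTP EV cells (SD, n = 3), from another library series.

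The circles of 2 GTPase-activating proteins came next. The ARHGAP12 circle, chr10:32197100-32199491, joins exon 3 back to exon 2 in a loop of 794 bases that holds the start codon. It had 63, 42.5 and 67.5 reads under DMSO and 39.5, 36.5 and 46.5 under Osi, overlapping at a single DMSO library, with a change of -0.67 ± 0.281 on the log2 scale (limma adjusted p 0.354). The ARHGAP5 circle, chr14:32559708-32563592, is exon 2 alone, 3885 bases long and the longest single exon among the matched members, and also holds the start codon. It had 24.5, 35 and 47 reads under DMSO and 38, 44 and 40 under Osi, and the change of 0.04 on the log2 scale took the other sign under scaling to the total (-0.13) and under RLE factors (-0.03).

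Signalling and transcription factor hosts followed. CRKL is an adaptor protein of receptor tyrosine kinase signalling, and its exon 2, chr22:21288067-21288532, forms a loop of 466 bases with 30, 49 and 43 reads under DMSO and 37, 19 and 13 under Osi. The groups overlapped through Osi library 1 (change -1.09 ± 0.401, limma adjusted p 0.263). GLIS3, a zinc-finger transcription factor, gave a single-exon circle of 1114 bases, chr9:4117768-4118881, with 13.5, 15 and 18 reads under DMSO and 24.5, 27 and 40.5 under Osi. Every Osi library was above every DMSO library, but the change of 0.72 ± 0.316 did not pass (limma adjusted p 0.358). The FAM13B circle, chr5:137320946-137324004, holds exons 8 to 10 in 331 bases and had 15, 6 and 19 reads under DMSO against 30, 34.5 and 34 under Osi, again without overlap (change 1.18 ± 0.43, limma adjusted p 0.257); the change was 0.68 without DMSO library 2. Its host messenger RNA was also higher in DTP EV than in Parental EV cells, at 59.4 ± 6.79 against 20.5 ± 0.354 CPM (SD, n = 3), which was not tested here.

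FBXW7, the substrate receptor of a ubiquitin ligase for cyclin E and MYC, gave a loop of exons 3 and 4 with the start codon, 620 bases long, at chr4:153332455-153333681. Its reads were 19, 23.3 and 24.3 under DMSO and 21.7, 15.7 and 19.3 under Osi, which overlapped (change -0.42 ± 0.278, limma adjusted p 0.588). CORO1C, an actin-binding coronin, gave a loop of exons 7 and 8, chr12:109046048-109048186, with 8, 19 and 18 reads under DMSO and exactly 26 in each Osi library (change 0.65 ± 0.373, limma adjusted p 0.495, and 0.32 without DMSO library 1). A row at chr8:128902835-128903244, which names a transcript model and no gene, had 37, 43 and 34 reads under DMSO and 35, 29 and 16 under Osi. For the XPO1 circle of exons 3 and 4 the reads were 16.5, 33 and 22 under DMSO and 24.5, 25 and 20.5 under Osi, with no separation.

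The abundant members also held the clearest lone zeros. TNFRSF21, a death receptor of the TNF receptor family, had 0, 31.5 and 28 reads under DMSO and 26.5, 27.5 and 30.5 under Osi. ZNF609, a zinc-finger gene whose circle of 874 bases at chr15:64791492-64792365 is among the widely studied ones, had 0, 19 and 28 reads under DMSO and 31, 35 and 23 under Osi. GCN1L1, an activator of the kinase GCN2, had 21, 64 and 43 reads under DMSO and 0, 22 and 25 under Osi. METTL3, the RNA adenosine methyltransferase, had 17, 0 and 17 reads under DMSO and 17, 21 and 22 under Osi. In each of these the library at 0 stood apart from its group. Without the DMSO library at 0, the fitted change of TNFRSF21 went from 1.42 to -0.23 and that of METTL3 from 1.44 to -0.02 on the log2 scale; for ZNF609 it went from 1.70 to 0.18, and without Osi library 1 that of GCN1L1 went from -2.38 to -0.87. The other circles of ZNF609 and FAM13B had reads in Osi library 3 alone, with 5 and 2 reads. The lone zeros fell on DMSO libraries 7, 5 and 2 times and on Osi libraries 5, 1 and 4 times, in order of replicate number.

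Across single members, no change between Osi and DMSO passed. A member entered the fit with at least 2 reads in at least 3 libraries, which 309 of 1123 did, among 871 circRNAs of any span. In limma on log2 of the TMM-scaled reads plus 1, adjusted over the 871 circRNAs, 0 members passed an adjusted p of 0.05, and 0% of all circRNAs did. At an unadjusted p below 0.05, 33 members (10.7%) were higher and 15 (4.85%) lower under Osi, against 9.76% and 4.13% of all tested circRNAs, so the members' shares lay near the background. The fitted change was above 0 in 175 of 309 members (56.6%), against 58.1% of all, with a median of 0.18 in members, 0.22 in all and 0.38 in circRNAs over 30 kb. The 3 Osi libraries lay all above the 3 DMSO libraries in 45 members (14.6%) and all below in 13 (4.21%), against 14.8% and 4.48% of all. The 45 include 14 members at 0 in every DMSO library, and the 13 include 5 at 0 in every Osi library. These entered only through the treatment in which they have reads, so their separation was set by the filter. Scaling moved these medians: without scaling they were 0.33 in members and 0.37 in all, and with scaling to the total 0.06 and 0.09.

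Other settings of the fit made calls. Without the mean-variance trend, 8 members were higher and 1 lower, against 2.64% and 0.918% of all tested circRNAs. With a pseudocount of 0.1, 14 were higher and 6 lower, against 4.36% and 1.61%. In the authors' deposited table, 54 members carry the state Up (4.81%) and 16 the state Down (1.42%), against 4.87% and 1.5% of all 2997 circRNAs. HIPK3 alone among the members has an adjusted p below 0.05 there, against 4 of all 2997 circRNAs. Its log10 fold change is 1.11 and its adjusted p 0.0351 in the authors' deposited table. The HIPK3 circle had 0 reads in every DMSO library, so that p-value is given as deposited and is not taken as support.

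Members with reads in all libraries of one treatment and none of the other were few. There were 18 with reads in all 3 Osi libraries and no DMSO library (1.603%, against 1.9% of all circRNAs) and 7 the other way round (0.623%, against 0.601%). For each of them a group total of 0 allows up to 3 reads over the group, from counting error only. Of these, 14 without DMSO reads and 5 without Osi reads entered the limma fit, and only through the treatment in which they have reads. The reads of all of them are therefore given as a description, with no p from that fit. Those that entered are part of the counts of separated groups and of the unadjusted counts above. Of the 48 members with an unadjusted p below 0.05, 19 had a group at 0.

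Of those seen under Osi only, HIPK3, a nuclear serine/threonine kinase of the homeodomain-interacting family, had the most reads. Its circle is exon 2 closed on itself, 1099 bases with the start codon, at chr11:33307959-33309057, and it had 0 reads in each DMSO library and 21, 7 and 11 under Osi. The host messenger RNA was at 91.7 ± 2.47 CPM in Parental EV and 94.6 ± 13.3 in DTP EV cells (SD, n = 3). BABAM1, a subunit of the BRCA1-A complex of DNA repair, gave a loop of exons 7 and 8 with 11, 13 and 5 reads under Osi. DOPEY2, a membrane trafficking protein, gave a loop of exons 20 and 21 with 7, 12 and 7 reads under Osi. GLG1, a Golgi glycoprotein, gave a loop of exons 20 to 23 with 6, 6 and 8 reads. All 3 of these were at 0 in each DMSO library. FBRS had 22, 5 and 4 reads and AKR1A1, an aldehyde reductase, 4, 6 and 5, again with 0 in every DMSO library.

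The members seen only under DMSO were led by SAFB2. This nuclear scaffold attachment factor gave a loop of exons 10 and 11 with 8, 2 and 7 reads under DMSO and 0 in each Osi library. NFE2L2, the transcription factor NRF2 of the antioxidant response, had 5.5, 2 and 5 reads, and PRKCA, protein kinase C alpha, 2, 5.5 and 3. PMPCB, a subunit of the mitochondrial processing peptidase, had 2, 2 and 7 reads, and BRIP1, a DNA helicase of interstrand crosslink repair, 2.33, 2 and 2.33.

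**Figure D4:**
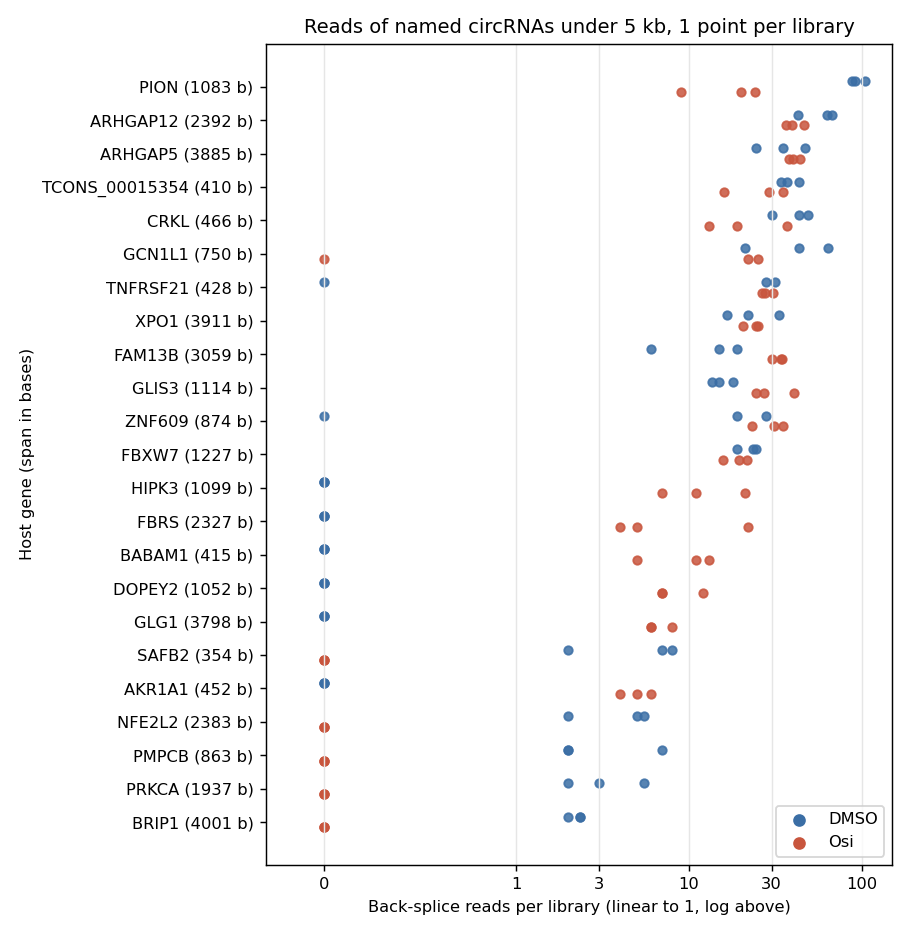
Back-splice reads per library (x axis, linear to 1 and logarithmic above) of the 12 most abundant members, those with the smallest p in each direction and those with reads in one treatment only, named by host gene and span (y axis). PION has 87 to 104 reads under DMSO and 9 to 24 under Osi; HIPK3 is at 0 in every DMSO library.

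Host genes were also grouped by function, in lists chosen with earlier results of these data known, so the counts below are a description. Of the hosts listed for growth signalling, 23 gave 26 members, which together had 32.2, 52 and 39.8 reads under DMSO and 74.2, 59.3 and 75.7 under Osi, without overlap, as for the sums over all members. Of the 6 that were tested, 2 were higher and 0 lower at an unadjusted p below 0.05, against 9.76% and 4.13% of all tested circRNAs, and the median change was 1.05 on the log2 scale, with 0 past the adjusted threshold. MAP3K1, a kinase upstream of JNK, held most of this difference, with exons 4 to 6 at chr5:56160561-56161804 and 0, 8 and 5 reads under DMSO against 27, 20 and 18 under Osi (change 2.42 ± 0.803, limma adjusted p 0.217); it is one of the members with a lone zero, and the change was 1.46 without that library. ERBB2, a receptor tyrosine kinase that pairs with EGFR, had 2, 2.5 and 4.5 reads for its circle of exons 3 to 7 under DMSO and 9, 5.5 and 19.5 under Osi (change 1.34, limma adjusted p 0.329, and 0.87 without Osi library 3). MET, another receptor tyrosine kinase, had 7.5, 6 and 10 reads under DMSO and 2, 6.5 and 8.5 under Osi (limma adjusted p 0.624). The MET messenger RNA was at 1450 ± 52.5 CPM in Parental EV and 535 ± 132 in DTP EV cells (SD, n = 3).

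Chromatin hosts gave 27 members with 37.6, 38.2 and 26.1 reads under DMSO and 69.3, 53.8 and 77.1 under Osi, again without overlap, as for the sums over all members. Of 10 tested, 1 was higher and 0 lower at an unadjusted p below 0.05, which is close to the 9.76% and 4.13% of all tested circRNAs. That was SMARCA5, a chromatin remodelling ATPase, whose loop of exons 15 and 16 had 0, 0 and 3 reads under DMSO and 7, 3 and 13 under Osi (limma adjusted p 0.27). ARID1A, a subunit of the SWI/SNF remodelling complex, had 6.5, 4 and 6 reads under DMSO and 4.5, 10.5 and 4 under Osi. ASXL1, a Polycomb-associated chromatin regulator, had 5.33, 6.67 and 0.667 reads under DMSO and 7.67, 4 and 5.67 under Osi, which overlapped. Hosts of circles that have been studied widely gave 21 members with 86.6, 134 and 149 reads under DMSO and 182, 172 and 184 under Osi, and 4 of 14 tested were higher and 0 lower at an unadjusted p below 0.05, against 9.76% and 4.13% of all tested circRNAs. HIPK3, at 0 in every DMSO library, and SMARCA5 were among them. HIPK3 entered the fit only through its Osi reads, and the list was chosen with earlier results known. The count is therefore a description and not a result about the list. Ubiquitin hosts gave 17 members with 52.3, 43.5 and 49.99 reads under DMSO and 71.7, 56.0 and 51.9 under Osi. USP25, a deubiquitinase, had 6.33, 1.67 and 5.33 reads under DMSO and 19.3, 10.5 and 11.7 under Osi (change 1.35, limma adjusted p 0.268, and 0.85 without DMSO library 2). UBXN7, an adaptor of the ATPase VCP, had 8, 6.33 and 4.33 reads under DMSO and 9, 9.33 and 8.33 under Osi.

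For hosts of other functions the summed reads of the groups overlapped. RNA processing hosts gave 28 members with 78.8, 94.7 and 80.7 reads under DMSO and 92.5, 102 and 95.0 under Osi, and 1 of 8 tested was lower at an unadjusted p below 0.05, against 4.13% of all tested circRNAs. Adhesion and cytoskeleton hosts gave 24 members with 133, 148 and 168 reads against 139, 172 and 182. Of 9 tested, 1 was lower at an unadjusted p below 0.05, against 4.13% of all tested circRNAs. Cell cycle and genome hosts gave 18 members with 39.0, 16 and 50.3 reads under DMSO and 12.7, 36.7 and 16.4 under Osi. Of 5 tested, 1 was lower at an unadjusted p below 0.05, against 4.13% of all tested circRNAs. That was BRIP1, which is at 0 in every Osi library and entered the fit only through DMSO. SMC3, a cohesin subunit, had 0, 5 and 6 reads under DMSO and 0, 6 and 0 under Osi. CCNB1, cyclin B1, had 26, 0 and 12 reads under DMSO and 4, 10 and 6 under Osi, and TOP2A, the topoisomerase of dividing cells, 0, 4 and 9 against 0, 7 and 0, while TOP2A messenger RNA was at 1162 ± 18.4 CPM in Parental EV and 171 ± 70.5 in DTP EV cells (SD, n = 3). Endoplasmic reticulum, Golgi and calcium hosts gave 14 members with 46.7, 9.5 and 30.7 reads under DMSO and 39.6, 19.7 and 38.7 under Osi. Of 6 tested, 0 passed an unadjusted p of 0.05, against 9.76% higher and 4.13% lower among all tested circRNAs. SCAP, the escort of SREBP, had 0, 0 and 10 reads under DMSO and 9, 4 and 16 under Osi. SEC24B, a coat protein of vesicles that leave the endoplasmic reticulum, had 6, 0 and 5 reads against 6, 4 and 4, and MAN2A1, a Golgi mannosidase, 8, 2.5 and 0 against 7.5, 0 and 5.5. Across the 8 lists, 0 members passed the adjusted threshold in limma, as for all circRNAs.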

How the data were processed

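Per the labels, ribosomal RNA was removed from total RNA and directional libraries were made. The submitters' processing notes name FastQC, MultiQC, STAR, featureCounts and build hg19, with no versions; the circRNA caller is not given in the sources used here. The authors deposited log10 values of back-splice reads plus 1 per circRNA, with their log10 fold change, p-value and adjusted p-value; per the file headers, columns D1 to D3 and O1 to O3 were read as DMSO and Osi by initial. Gene values, also deposited as log10 of counts plus 1, were turned into CPM. Another 18 value columns were not used.

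Because reads were partly fractional, no count model was run. Here limma 3.58.1 (R 4.3.3, robust off, with trend) was fitted to log2 of reads plus 1 over all circRNAs with at least 2 reads in 3 libraries, after TMM scaling (trims 0.3 and 0.05) and with Benjamini-Hochberg adjustment. It was also run on simulated whole counts, with changes planted in the more abundant circRNAs only. That run does not test whether changes are found in members with few or fractional reads. Sums over members were compared by two-sided exact permutation tests in Python 3.11.15 (numpy 2.4.6, scipy 1.17.1). Values within 1e-06 of a whole number were called whole. Exon blocks were matched by host and span to GENCODE release 29, not by position, since that annotation is on another build than the files. With 4944 to 7333 reads per library, intervals and limits cover counting error only.

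The members, the function lists and the rule for named members were chosen with earlier results of these data known. Named were the 12 most abundant members, the 5 with the smallest p in each direction, up to 5 in each direction with reads in one treatment only, up to 3 from each list, the 3 shortest, the 3 on each side of the size limit and hosts with several members; 1 of these members is not reported here. Alternatives were other scalings, filters, pseudocounts, no trend, a replicate block, a limit of 3000 bases, a detection limit of 2 reads and each library left out; fits on whole reads only, without lone zeros and on matched rows, and the start codon comparison, were chosen after seeing the data.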

Additional observations from a re-analysis of the deposited data

How the results depend on the processing

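No member passed in the main limma fit, under 3 other scalings, with at least 5 reads in 3 libraries, without lone zeros or with any 1 library left out (0 to 0 called); 9 passed with no filter (19 of all 2997 circRNAs), 9 without trend (31 of 871), 20 with a pseudocount of 0.1 (52 of 871) and 1, PION, among circRNAs with whole reads only (1 of 398). The cause was not tested. With the replicate block, 0 passed, and 44 members had an unadjusted p below 0.05 against 48. Replicate numbers did not pair the libraries (correlations of deviations 0.0429, -0.067 and -0.0194).

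The members' share of detected circRNAs, 0.908 points higher under Osi, was -0.169 points at a limit of 3000 bases (p = 0.9, exact permutation test), 0.479 without DMSO library 1 and 1.62 in matched rows. Among changes that were not called, the log2 sign turned for ARHGAP5 (-0.13 scaled to the total, -0.0265 with RLE), XPO1 (0.0196 unscaled), CCNB1 (0.0445 unscaled, 0.83 with a pseudocount of 0.1) and ARID1A (0.0896 unscaled). Leaving out each library turned it in these ranges: ARHGAP5 -0.15 to 0.24, TNFRSF21 -0.23 to 2.30, XPO1 -0.36 to 0.0369, METTL3 -0.0207 to 2.20, CCNB1 -1.59 to 0.92, ARID1A -0.48 to 0.12, ASXL1 -0.27 to 0.83, SEC24B -0.42 to 1.101 and MAN2A1 -0.75 to 1.05. Of 309 tested members, 216 are at 0 in at least 1 library; whether depth sets this was not tested.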
